A study of Homo sapiens with 6 samples.

Results

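Messenger RNA of 9 genes at the centre of TGF-beta and BMP signalling and its negative feedback was followed in MDA-MB-231 cells before and after dinaciclib: ID1, ID2, ID3, TGFBR2, SMAD3, SMAD6, SMAD7, SKIL and TGIF1. Every probe set that the annotation of the oligonucleotide array gave to 1 of these genes alone was taken, which gave 19 of the 22215 probe sets that are not controls, and 9 of 11963 genes. 1 further probe set listed to ID2 together with another gene was left out. MDA-MB-231 is an established triple-negative breast cancer line with a mesenchymal phenotype, and dinaciclib is a small molecule inhibitor of several cyclin-dependent kinases, among them CDK9, which drives transcription elongation. The baseline group held 3 samples collected at 0 h (named E, 4 and 5) and the dinaciclib group 3 samples collected at 12 h (named F, 4 and 5), all grown in RPMI with serum. The drug was dissolved in DMSO. Neither its dose nor whether DMSO was added to baseline cells is stated in the labels. No sample was held for 12 h without the drug, so drug, solvent and time in culture cannot be told apart. The labels do not call the samples of a group separate cultures, and p-values here therefore reflect sample-to-sample spread that may be technical. In such bulk samples, fewer cells with a transcript and less of it per cell cannot be told apart.

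TGF-beta binds the type II receptor encoded by TGFBR2, which activates a type I receptor. That receptor phosphorylates SMAD2 and SMAD3, while BMP receptors phosphorylate SMAD1, SMAD5 and SMAD9, and both kinds enter the nucleus with SMAD4. Targets of the pathway include its own brakes, among them the inhibitory SMADs SMAD6 and SMAD7 and the corepressor SnoN, encoded by SKIL. BMP signalling induces the ID genes, whose products bind E proteins and keep them off DNA. In breast cancer lines of this kind TGF-beta signalling is known for its part in invasion and metastasis.

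The upstream sequences of 3 members are shown because these genes gave the largest change (SMAD6) or a change that passed the test at a gene with a single listed start site (SKIL, ID2). Each line gives the 250 bases before the annotated start, 5′ to 3′ on the plus strand, from RefSeq on GRCh38.p14. All lie upstream of the first exon, at chr15:66701986-66702235 for SMAD6, chr3:170357465-170357714 for SKIL and chr2:8681806-8682055 for ID2. Capitals mark matches to GTCTAGAC (the palindromic SMAD box), CAGAC (a shorter SMAD-binding element), GGCGCC (a GC-rich BMP-SMAD element) and TGACGTCA (the cyclic AMP response element) in SMAD6 and SKIL, and to CCAAT (the box bound by NF-Y) in ID2, searched on both strands.
SMAD6: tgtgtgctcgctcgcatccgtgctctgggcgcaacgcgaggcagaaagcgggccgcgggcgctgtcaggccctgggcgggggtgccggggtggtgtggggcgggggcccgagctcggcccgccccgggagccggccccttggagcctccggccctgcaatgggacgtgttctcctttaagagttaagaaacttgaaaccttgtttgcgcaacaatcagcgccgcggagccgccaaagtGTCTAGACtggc
SKIL: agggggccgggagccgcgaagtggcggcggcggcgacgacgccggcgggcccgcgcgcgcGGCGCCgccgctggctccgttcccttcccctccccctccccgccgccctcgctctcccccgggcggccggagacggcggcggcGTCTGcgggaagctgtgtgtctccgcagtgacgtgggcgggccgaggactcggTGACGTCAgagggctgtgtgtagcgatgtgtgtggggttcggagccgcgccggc
ID2: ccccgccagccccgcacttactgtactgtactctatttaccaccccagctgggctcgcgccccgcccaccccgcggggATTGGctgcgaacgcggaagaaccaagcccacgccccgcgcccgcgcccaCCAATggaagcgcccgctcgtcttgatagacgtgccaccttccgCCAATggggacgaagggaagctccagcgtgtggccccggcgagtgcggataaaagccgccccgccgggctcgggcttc
The SMAD6 window held GTCTAGAC 12 to 5 bases before the start, a motif present in 0.182% of 35116 promoter windows of the same length. The SKIL window held CAGAC, read as GTCTG, 107 to 103 bases before the start (38% of all windows hold this motif), GGCGCC at 190 to 185 (16.4%) and TGACGTCA at 54 to 47 (1.65%). The ID2 window held none of these 4 motifs and had CCAAT or its complement ATTGG at 3 positions (32% of all windows hold at least 1). No 2 of the marked matches overlapped. All 9 members had entries, 22 in all because SMAD3, SMAD7, TGIF1 and TGFBR2 are listed with several starts, and GTCTAGAC occurred in the 1 entry of SMAD6 alone. The motifs were chosen after the sequences were seen, and the matches describe sequence, with no measurement of binding.

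Of the 19 probe sets 3 passed the test, a share near that of all probe sets, and all 3 were higher after dinaciclib. A probe set of SMAD3, a probe set of SKIL and a probe set of ID2 rose, 0 fell and 16 missed the threshold (limma on log2(value + 1), Benjamini-Hochberg adjusted p under 0.05 over all probe sets). That is 15.8% of the members, against 17.2% of all probe sets called in either direction, 3.86% called as rises and 13.4% as falls. At an unadjusted p under 0.05 there were 8 member probe sets, 6 higher and 2 lower, against 30.5% of all probe sets. In 9 member probe sets (47.4%) the 2 groups did not overlap, 7 higher (36.8%) and 2 lower (10.5%) after dinaciclib. Over all probe sets the groups did not overlap in 36.6%, with 10.1% higher and 26.5% lower. The median log2 change was 0.10 over the members and -0.21 over all probe sets.

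The scaling of the arrays moved these counts. Median intensities were 53.3 to 66.2 at baseline and 40.6 to 46.8 after dinaciclib. As deposited, 22.4% of the 3828 calls were rises. Quantile normalization moved the median change of all probe sets to 0.03 and the share of rises to 47.7% of 4468 calls. Median centring moved them to 0.24 and 64.3% of 5425 calls. With these scalings 7 and 8 member probe sets passed, all as rises, beside background rises of 9.59% and 15.7%. Centring on spiked controls gave a median of -0.29, a share of rises of 17.4%, and 1 member call, a fall of SMAD6. The 3 member calls were all lost in every fit that left out 1 of the 6 samples. The 3828 calls became 1715 and 1623 without baseline 4 and 5, and 2093 and 2138 without dinaciclib 4 and 5. Of the 3828, 35.6% passed in each of these fits and 10.2% passed in none.

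Both letter samples differed from the numbered ones, with 18S ribosomal RNA control intensities of 736 and 1155 in E and F and 8273 to 9061 in the numbered samples. The ratio of the 3-prime to the 5-prime ACTB control was 4.27 in baseline E and 3.64 in dinaciclib F, and 5.87 to 6.67 in the numbered samples. Changes within the letter pair and within the numbered samples are therefore given beside results below. They had the same sign in 15 of the 19 member probe sets. Of the markers of the line, VIM, CD44, AXL, EGFR and CAV1 were bright, at or above the 77.7th percentile of mean signal. EGFR, the lowest of these, ranged from 152 to 1273 over the 6 arrays. PGR (0.434 to 5.29), CDH1 (0.440 to 13.1) and ESR1 (11.5 to 33.6) were dim. ERBB2, at 60.6 to 175, and GATA3, listed among the luminal markers, at 263 to 401, were above the median (60.3rd and 74.5th percentiles). With 6 arrays, their number limits precision.

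**Figure D1:**
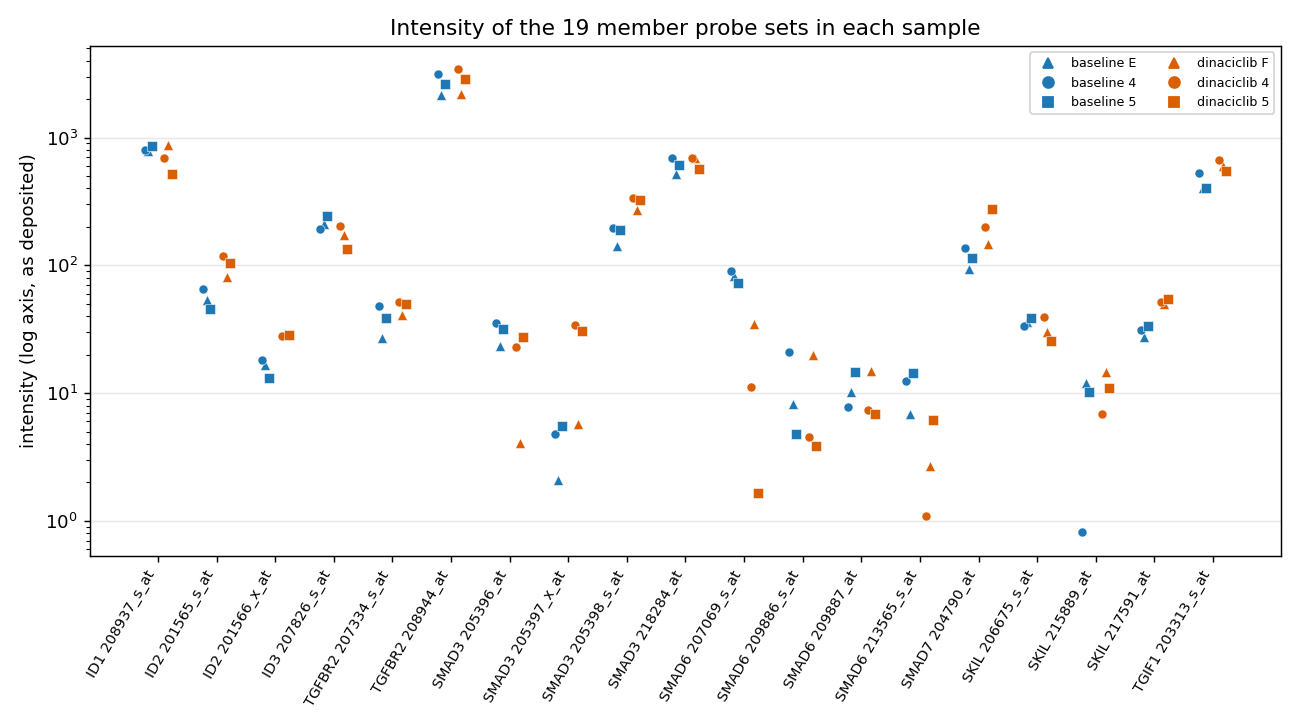
Intensity of each of the 19 member probe sets in the 6 samples, as deposited and on a log axis, with blue for baseline, orange for dinaciclib, triangles for the letter samples E and F, circles for 4 and squares for 5. The groups are separate in 9 probe sets, and dinaciclib samples spread widely on SMAD6 207069_s_at (34.6, 11.2 and 1.67). Heights of different probe sets are not comparable with each other.

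TGFBR2, the type II TGF-beta receptor, did not pass on either of its 2 probe sets. Its brighter probe set, 208944_at, read 2144, 3122 and 2644 in baseline E, 4 and 5 and 2210, 3440 and 2886 in dinaciclib F, 4 and 5. The groups overlapped, with the letter sample lowest in each. The log2 change was 0.10, with a 95% confidence interval of -0.52 to 0.72 from the limma fit, and it turned to -0.037 without baseline E and -0.045 without dinaciclib 4. The dimmer probe set, 207334_s_at, read 27.0, 47.7 and 38.7 at baseline and 40.8, 51.9 and 49.97 after dinaciclib, again with overlap (log2 change 0.35, interval -0.28 to 0.99, or 0.14 without baseline E and 0.54 without baseline 4). It passed after quantile normalization (0.76) and median centring (0.81).

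Both activin type II receptors and a decoy receptor rose. Of 11 other measured receptors and co-receptors, each represented by its brightest probe set, 3 rose, 1 fell and 7 did not pass (36.4% called, against 19.1% of all 11963 genes). Their median log2 change was 0.69, against -0.26 over all genes. The type I receptors ACVR1 and ACVR1B did not pass there (log2 changes -0.004 and -0.18), while 1 of the other probe sets of ACVR1B rose (1.29). Counts for this and the other lists are on brightest probe sets, and genes that passed on another probe set alone are named after their values were seen. ACVR2B, an activin type II receptor, read 48.8, 51.6 and 28.3 at baseline and 253, 275 and 223 after dinaciclib. It rose (log2 change 2.56, standard error 0.28, limma, Benjamini-Hochberg adjusted p = 0.00454), and the lowest dinaciclib sample was above every baseline sample. BAMBI, a pseudoreceptor that lacks a kinase domain and dampens the signal, read 190, 192 and 155 at baseline and 580, 643 and 483 after dinaciclib. It rose (log2 change 1.66, standard error 0.21, limma, Benjamini-Hochberg adjusted p = 0.00594). ACVR2B and BAMBI passed under all 16 alternatives. ACVR2A, the other activin type II receptor and a gene outside the naming rule, also rose (1.22, standard error 0.20), though not without baseline 5 (1.17, limma, Benjamini-Hochberg adjusted p = 0.0555).

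BMPR2, the type II receptor for BMPs, read 163, 178 and 175 at baseline and 91.5, 79.0 and 79.3 after dinaciclib. It fell on 1 of its 2 probe sets (log2 change -1.04, standard error 0.18), with no overlap of the groups. On the other, the change of -0.83 missed the threshold (limma, Benjamini-Hochberg adjusted p = 0.0748). The call was lost after quantile normalization (-0.55, limma, Benjamini-Hochberg adjusted p = 0.0613) and without baseline 4 (-1.01, adjusted p = 0.0559), baseline 5 (-1.03, adjusted p = 0.0633) or dinaciclib 4 (-1.003, adjusted p = 0.0557). TGFBR1, the type I partner of TGFBR2, read 15.8, 18.6 and 27.9 at baseline and 34.6, 38.4 and 46.0 after dinaciclib. Its groups did not overlap and the log2 change of 0.93 missed the threshold (limma, Benjamini-Hochberg adjusted p = 0.0623). Among 13 measured ligands 1 fell, 0 rose and 12 did not pass on the brightest probe set (7.69% called, against 19.1% of all genes, median log2 change -0.09, limma). At an unadjusted p under 0.05, again 0 rose and 1 fell, beside 33.7% of all genes in either direction. TGFB2, another ligand, rose on 1 of its 4 probe sets (1.83), which is not its brightest. The fall was that of BMP6, a BMP ligand, on 1 of its 2 probe sets. That probe set read 37.0, 39.98 and 28.8 before and 11.9, 15.1 and 15.4 after dinaciclib (log2 change -1.26, standard error 0.22). The call was lost without baseline 4 (-1.16, limma, Benjamini-Hochberg adjusted p = 0.0568) and with the numbered samples alone (-1.10, adjusted p = 0.073). The other BMP6 probe set, which was dim, did not pass (-1.08, adjusted p = 0.414). TGFB1, the prototype ligand, read 46.7 to 68.1 at baseline and 41.5 to 57.4 after dinaciclib, with a log2 change of -0.09 as deposited, 0.35 after quantile normalization and 0.36 with median centring.

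SMAD3, the TGF-beta effector that binds DNA with SMAD4, did not give the same call on its 4 probe sets. The brightest, 218284_at, read 520, 694 and 614 in baseline E, 4 and 5 and 689, 688 and 568 in dinaciclib F, 4 and 5. These groups overlapped (log2 change 0.09, interval -0.41 to 0.59), and the sign turned in the numbered samples alone (-0.063). With median centring it passed (0.55, limma, Benjamini-Hochberg adjusted p = 0.0351). Probe set 205398_s_at read 142, 195 and 188 at baseline and 273, 338 and 323 after dinaciclib. All 3 dinaciclib samples lay above all 3 baseline samples. The signal rose from a log2 mean of 7.45 ± 0.25 (SD, n = 3) to 8.28 ± 0.16 (log2 change 0.84, standard error 0.22, limma, Benjamini-Hochberg adjusted p = 0.0456). The change was 0.94 from E to F and 0.79 in the numbered samples alone, where it did not pass (adjusted p = 0.0738), nor did it with centring on spiked controls (0.75), and without any 1 sample adjusted p lay between 0.0736 and 0.138.

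The other SMAD3 probe sets were dim and read in opposite directions. Probe set 205397_x_at, whose suffix x marks probes that can match other sequences, read 2.07, 4.82 and 5.54 at baseline and 5.75, 34.3 and 30.5 after dinaciclib. The groups were separate by a small margin at dinaciclib F (log2 change 2.001, limma, Benjamini-Hochberg adjusted p = 0.104), and it passed with letter or number as a covariate (0.0181), within the numbered samples (2.43, adjusted p = 0.0367) and without dinaciclib F (2.77, adjusted p = 0.0167). Probe set 205396_at read 23.4, 35.6 and 31.9 at baseline and 4.08, 22.9 and 27.7 after dinaciclib. Its change of -1.02 was larger in the letter pair (-2.26) than in the numbered samples (-0.41), and the groups overlapped. Within arrays, 205398_s_at minus 218284_at moved from -1.80 to -1.05 log2 units, a description of probe sets chosen after their values were seen.

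By the fixed rule, the genes most like SMAD3 205398_s_at over the 6 samples, among called probe sets, were ZNF23 (r = 0.9988), VCAN (r = 0.9988), the proteoglycan versican, and RND3 (r = 0.9987). Of 3414 called probe sets compared, 376 had r over 0.95, and all share the same 6 arrays and the same split between groups, so the likeness describes these arrays. The other SMADs that carry the signal did not pass on their brightest probe sets. There 0 of 5 rose and 0 fell (limma), against 19.1% of all genes called. At an unadjusted p under 0.05, 2 were higher, namely SMAD2 and SMAD5, and 0 lower, beside 33.7% of all genes in either direction. SMAD2, the other TGF-beta effector, read 410, 561 and 570 at baseline and 771, 896 and 968 after dinaciclib (log2 change 0.78, limma, Benjamini-Hochberg adjusted p = 0.0604). SMAD5, a BMP effector named here after its values were seen, read 119, 398 and 173 at baseline and 473, 720 and 896 after dinaciclib (log2 change 1.73, adjusted p = 0.0591), and it rose on its other probe set (log2 change 1.87, limma, Benjamini-Hochberg adjusted p = 0.0338). SMAD4, the common partner, read 433 to 528 at baseline and 474 to 726 after dinaciclib, with overlap (0.32).

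The inhibitory SMADs, which block the receptors and the activated SMADs, read in opposite directions, and neither passed as deposited. SMAD6, which acts mainly on BMP signalling, read 82.5, 91.0 and 73.3 on its brightest probe set, 207069_s_at, in baseline E, 4 and 5. It read 34.6, 11.2 and 1.67 in dinaciclib F, 4 and 5. Every dinaciclib sample lay below every baseline sample, and the 3 dinaciclib samples differed from each other by far more than the baseline samples did. On the log2 scale the means were 6.37 ± 0.15 and 3.39 ± 1.88 (SD, n = 3), which differ by -2.98 (standard error 0.88, interval -5.11 to -0.86, limma, Benjamini-Hochberg adjusted p = 0.0671). The change was -1.23 from E to F and -3.86 in the numbered samples, and its size depends on dim values, since log2(value + 16) gave -1.76. It passed in that setting (adjusted p = 0.00734), without dim probe sets (0.00712), with a variance trend (0.00833) and without dinaciclib F (-3.86, adjusted p = 0.0232), and in no other of its 16 alternatives.

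The other 3 SMAD6 probe sets were near the floor, with mean intensities under 16 in both groups. Of these 213565_s_at read 6.91, 12.5 and 14.3 at baseline and 2.71, 1.09 and 6.15 after dinaciclib, also without overlap (log2 change -1.63, limma, Benjamini-Hochberg adjusted p = 0.0748). It passed with centring on spiked controls (-1.71) and without dinaciclib 5 (-2.08). The remaining 2, 209886_s_at (4.75 to 20.9 at baseline, 3.84 to 20.0 after dinaciclib) and 209887_at (7.80 to 14.6 and 6.82 to 14.9), overlapped, and their changes of -0.35 and -0.19 turned positive with median centring (0.10 and 0.26).

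SMAD7, which recruits ubiquitin ligases to the type I receptor, was measured by 204790_at alone. It read 93.9, 136 and 113 in baseline E, 4 and 5 and 147, 201 and 279 in dinaciclib F, 4 and 5. The groups did not overlap, with dinaciclib F only slightly above baseline 4. The log2 means were 6.83 ± 0.26 and 7.67 ± 0.46 (SD, n = 3), and the change of 0.83 (standard error 0.30) missed the threshold as deposited (limma, Benjamini-Hochberg adjusted p = 0.113). It was 0.64 from E to F and 0.93 in the numbered samples. It passed after quantile normalization (1.30, adjusted p = 0.0241), with median centring (1.28, adjusted p = 0.0263), without dim probe sets (0.0269), with a variance trend (0.0319) and with letter or number as a covariate (0.0486).

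**Figure D2:**
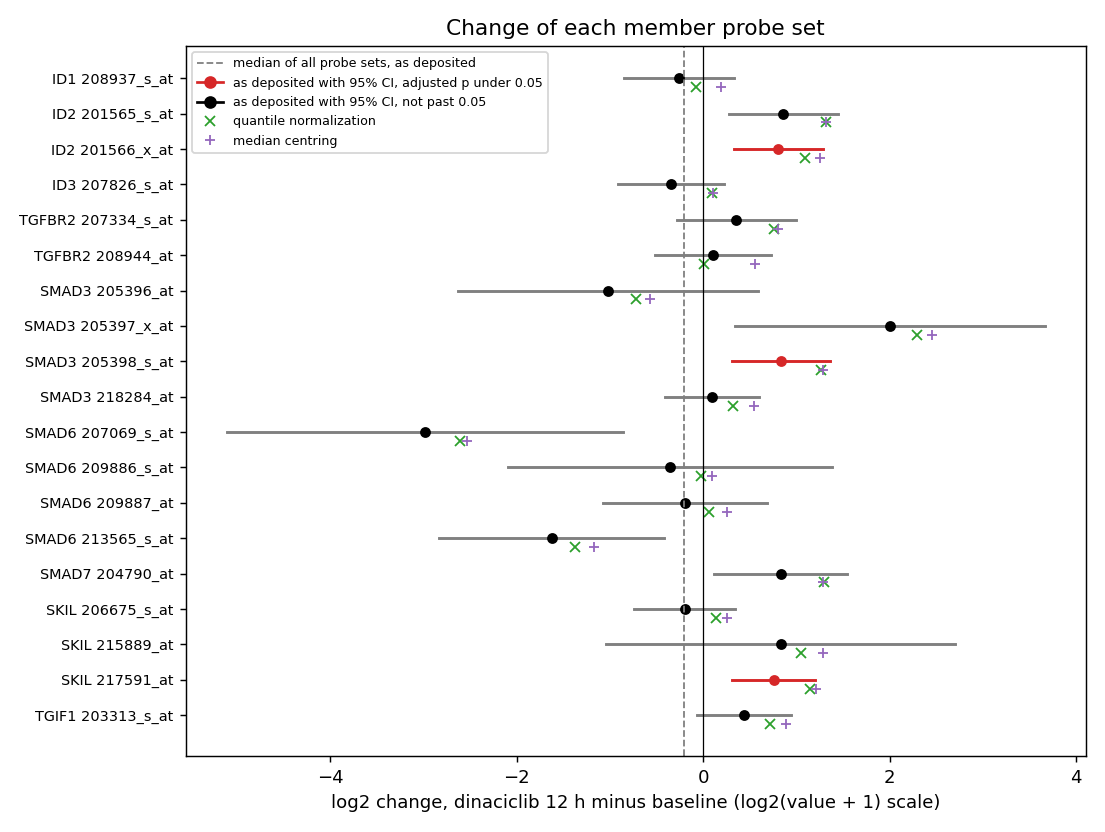
Log2 change (dinaciclib 12 h minus baseline, log2(value + 1) scale) of each member probe set, with points and bars for the value as deposited and its 95% confidence interval from limma, red where the adjusted p was under 0.05. Crosses and plus signs give the change after quantile normalization and median centring, and the dashed line is the median of all probe sets, -0.21. SMAD6 207069_s_at lies farthest from 0, at -2.98, with the widest interval.

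The nuclear corepressors were SKIL and TGIF1, whose proteins bind SMADs on DNA and recruit histone deacetylases. SKIL rose on 1 of its 3 probe sets. On 217591_at it read 27.3, 31.4 and 33.3 in baseline E, 4 and 5 and 49.96, 52.1 and 54.96 in dinaciclib F, 4 and 5. The replicates lay close together within each group, and the groups were well apart. The rise was from a log2 mean of 4.98 ± 0.14 (SD, n = 3) to 5.74 ± 0.07 (log2 change 0.76, standard error 0.18, limma, Benjamini-Hochberg adjusted p = 0.0373). The change was 0.85 from E to F and 0.71 in the numbered samples, where it did not pass (adjusted p = 0.089), nor did it with centring on spiked controls (0.67) or a variance trend, and without any 1 sample adjusted p lay between 0.0687 and 0.11.

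The second SKIL probe set, 206675_s_at, of similar brightness, read 36.4, 33.6 and 38.6 at baseline and 30.1, 39.6 and 25.8 after dinaciclib. These groups overlapped (log2 change -0.20, interval -0.74 to 0.34), and the sign turned after quantile normalization (0.14) and median centring (0.25). Within arrays, 217591_at minus 206675_s_at went from -0.24 to 0.72 log2 units, with every dinaciclib sample above every baseline sample, again for probe sets chosen after their values were seen. The dim probe set 215889_at read 12.0, 0.813 and 10.2 at baseline and 14.5, 6.93 and 10.97 after dinaciclib, and its change of 0.83 became -0.08 without baseline 4.

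TGIF1, a homeodomain corepressor, was measured by 203313_s_at. It read 407, 526 and 405 at baseline and 596, 666 and 544 after dinaciclib, so that the lowest dinaciclib sample stood just above the highest baseline sample. The log2 change of 0.44 (interval -0.06 to 0.94) missed the threshold as deposited (limma, Benjamini-Hochberg adjusted p = 0.216) and passed after quantile normalization (0.72, adjusted p = 0.0199) and median centring (0.89, adjusted p = 0.0101). Among 15 other repressors, ubiquitin ligases and adaptors of the pathway, 1 rose, 2 fell and 12 did not pass on the brightest probe set (20% called, against 19.1% of all genes, median log2 change -0.26). On other probe sets SMURF1, a ubiquitin ligase, rose on 2 of 3 (3.57 and 1.55), ZFYVE9, the adaptor SARA, rose on 1 of 2 (1.73) and NEDD4L, a ubiquitin ligase, fell on 1 of 2 (-2.27). Their brightest probe sets had log2 changes of 0.83, -1.02 and 1.001. PPM1A, a phosphatase that acts on activated SMAD2 and SMAD3, rose from 807, 969 and 778 to 1864, 2035 and 1848 (log2 change 1.17, standard error 0.19) on 1 of its 2 probe sets, though not without baseline 5 (1.11, limma, Benjamini-Hochberg adjusted p = 0.055) or in the numbered samples alone (1.16, adjusted p = 0.0568). RNF111, the ubiquitin ligase Arkadia that degrades SnoN and SMAD7, fell from 425, 559 and 595 to 201, 150 and 127 (log2 change -1.73, standard error 0.26). It passed under all 16 alternatives. TGIF2, a relative of TGIF1, fell on 1 of its 2 probe sets (log2 change -0.91, standard error 0.23). Its call was lost under each of the 3 scalings, with the replicate block and when any sample other than baseline E was left out, and on its other probe set it did not pass.

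The ID genes, dominant negative helix-loop-helix factors that lack a DNA-binding region, gave readings that differed in sign. ID1 read 791, 803 and 859 in baseline E, 4 and 5 and 880, 689 and 520 in dinaciclib F, 4 and 5. The baseline samples were close together, while dinaciclib F was the highest of all 6 and dinaciclib 5 the lowest. The log2 change of -0.26 (interval -0.85 to 0.33) did not pass and turned to 0.19 with median centring, and it was 0.15 from E to F and -0.47 in the numbered samples. ID3 read 212, 191 and 244 at baseline and 174, 205 and 134 after dinaciclib, with overlap. Its change of -0.35 (interval -0.91 to 0.22) did not pass, with values of 0.10 after quantile normalization and 0.11 with median centring.

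ID2 was higher after dinaciclib in every sample on both of the probe sets annotated to it alone. The brighter one, 201565_s_at, read 53.8, 65.9 and 45.9 at baseline and 80.9, 118 and 104 after dinaciclib. The groups did not overlap, with log2 means of 5.80 ± 0.26 and 6.66 ± 0.28 (SD, n = 3). Its change of 0.86 (standard error 0.24) missed the threshold (limma, Benjamini-Hochberg adjusted p = 0.0582), and it passed after quantile normalization (1.32, adjusted p = 0.00858), with median centring (1.31, adjusted p = 0.0103), with log2(value + 16) (0.71), without dim probe sets (0.0108) and with a variance trend (0.0235). The dimmer one, 201566_x_at, read 16.6, 18.3 and 13.2 at baseline and 29.1, 28.0 and 28.5 after dinaciclib, and rose (log2 change 0.80, standard error 0.20, limma, Benjamini-Hochberg adjusted p = 0.039). The change was 0.78 from E to F and 0.82 in the numbered samples, where it did not pass (adjusted p = 0.117), nor did it with the replicate block, a variance trend or centring on spiked controls, and without any 1 sample adjusted p lay between 0.0651 and 0.145. Its probes can match other sequences, as the x in its name says, and the annotation lists a near copy, ID2B, so the signals of both may not be separate.

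ID4, the fourth gene of the family, fell on its brightest probe set, which read 106, 124 and 133 at baseline and 37.5, 33.3 and 26.8 after dinaciclib (log2 change -1.87, standard error 0.22, limma, Benjamini-Hochberg adjusted p = 0.00498). It passed there under all 16 alternatives, while its other 2 probe sets had changes of 0.10 and 0.18 and did not pass. Of 12 measured partners and relatives of the ID proteins ID4 was the 1 called on the brightest probe set (8.33%, against 19.1% of all genes), and 0 rose (limma). At an unadjusted p under 0.05, 1 was higher and 1 lower, beside 33.7% of all genes in either direction. The E proteins TCF3 and TCF12, which the ID proteins bind, did not pass on their brightest probe sets, with log2 changes of -0.43 and -0.28 that became 0.017 and 0.17 with median centring. TCF3 fell on 1 of its 13 probe sets (-1.17).

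Differences of log2(value + 1) between 2 members within the same array shift little when a whole array is brighter or dimmer. Dim values, such as those of SMAD6 after dinaciclib, are an exception because of the added 1. 6 pairs were compared on their brightest probe sets, with an exact two-sided permutation test that cannot go below 0.1 with 3 against 3 samples. ID2 minus ID3 was -1.96, -1.52 and -2.38 log2 units at baseline and -1.09, -0.79 and -0.36 after dinaciclib, and ID1 minus ID2 moved from 3.88 ± 0.30 to 2.75 ± 0.59 (SD, n = 3). Neither overlapped (exact p = 0.1 for both, 0.15 adjusted over the 6 pairs). ID1 minus ID3 stayed within its spread, at 1.93 ± 0.13 and 2.01 ± 0.30 (SD, n = 3, exact p = 0.8, 0.8 adjusted), and its difference of 0.08 became -0.17 after quantile normalization.

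SMAD6 minus SMAD7 was -0.19, -0.57 and -0.62 log2 units in baseline E, 4 and 5 and -2.06, -4.05 and -6.71 in dinaciclib F, 4 and 5. The groups were separate, with a difference of -3.82 (exact permutation p = 0.1, 0.15 adjusted), or -2.52 with log2(value + 16). SMAD3 minus SMAD7 moved from 2.41 ± 0.06 to 1.67 ± 0.60 (SD, n = 3), also without overlap (exact permutation p = 0.1, 0.15 adjusted). This holds for SMAD3 218284_at, whose own log2 change was 0.09. SMAD3 205398_s_at changed by 0.84, about as much as SMAD7 (0.83). SKIL minus TGIF1 went from -3.81 ± 0.23 to -3.49 ± 0.19 (SD, n = 3), with overlap (exact permutation p = 0.2, 0.24 adjusted). That pair used SKIL 217591_at (log2 change 0.76), while SKIL 206675_s_at changed by -0.20 and TGIF1 by 0.44. The differences thus depend on the probe set taken for a gene, and pairs of other probe sets were not tested.

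**Figure D3:**
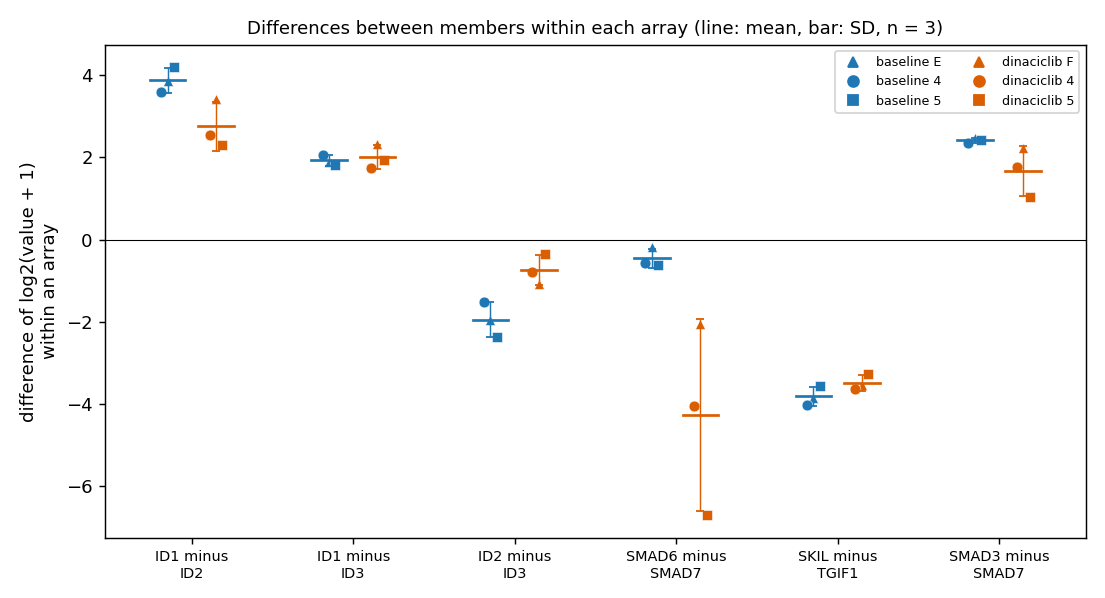
Difference of log2(value + 1) between 2 members within each array for the 6 pairs, with blue for baseline, orange for dinaciclib, triangles for E and F, circles for 4 and squares for 5. Each member is represented by its brightest probe set alone. Lines are means and bars SD of 3 samples, and the groups are separate for ID1 minus ID2, ID2 minus ID3, SMAD6 minus SMAD7 and SMAD3 minus SMAD7.

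Transcripts known to be induced by TGF-beta did not move as one. Of 16 measured, 1 rose, 2 fell and 13 did not pass (18.8% called, against 19.1% of all genes), with a median log2 change of -0.18. TPM1, a tropomyosin, rose on 1 of its 4 probe sets (0.91), which is not its brightest. JUNB, an AP-1 factor, rose from 86.7, 93.8 and 81.9 to 384, 641 and 514.5 (log2 change 2.51, standard error 0.24), and IL11, a cytokine linked to bone metastasis, fell from 844, 893 and 1207 to 332, 270 and 264 (log2 change -1.75, standard error 0.23). Both passed under all 16 alternatives, and both IL11 probe sets fell. LTBP2, a matrix protein of the latent TGF-beta binding family that stands in 2 of the lists, fell from 74.6, 75.0 and 84.5 to 47.0, 43.3 and 48.4 (log2 change -0.74, standard error 0.18). This call was lost under each of the 3 scalings, in the numbered samples alone and whichever sample was left out, the last with adjusted p between 0.0555 and 0.145 (limma, Benjamini-Hochberg).

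Of 13 extracellular binding proteins and antagonists 0 rose, 2 fell and 11 did not pass (15.4% called, against 19.1% of all genes, median log2 change -0.11). At an unadjusted p under 0.05 (limma), 1 was higher and 2 lower, beside 33.7% of all genes in either direction. Beside LTBP2, FBN1, the microfibril protein that holds latent TGF-beta in the matrix, fell from 353, 406 and 440 to 218, 208 and 228 (log2 change -0.87, standard error 0.19) on 1 of its 2 probe sets. That call was lost after quantile normalization (-0.46, limma, Benjamini-Hochberg adjusted p = 0.0974), with median centring (-0.42, adjusted p = 0.109), in the numbered samples alone (-0.96, adjusted p = 0.0594) and when any sample other than baseline E was left out (adjusted p from 0.0695 to 0.109). Counted once each, 82 genes of all the lists gave 5 rises and 8 falls, 15.9% called against 19.1% of all genes (3.32% rises and 15.8% falls). At an unadjusted p under 0.05 they gave 13 higher and 10 lower, beside 33.7% of all genes, and the 13 calls were 7 without baseline 5.

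**Figure D4:**
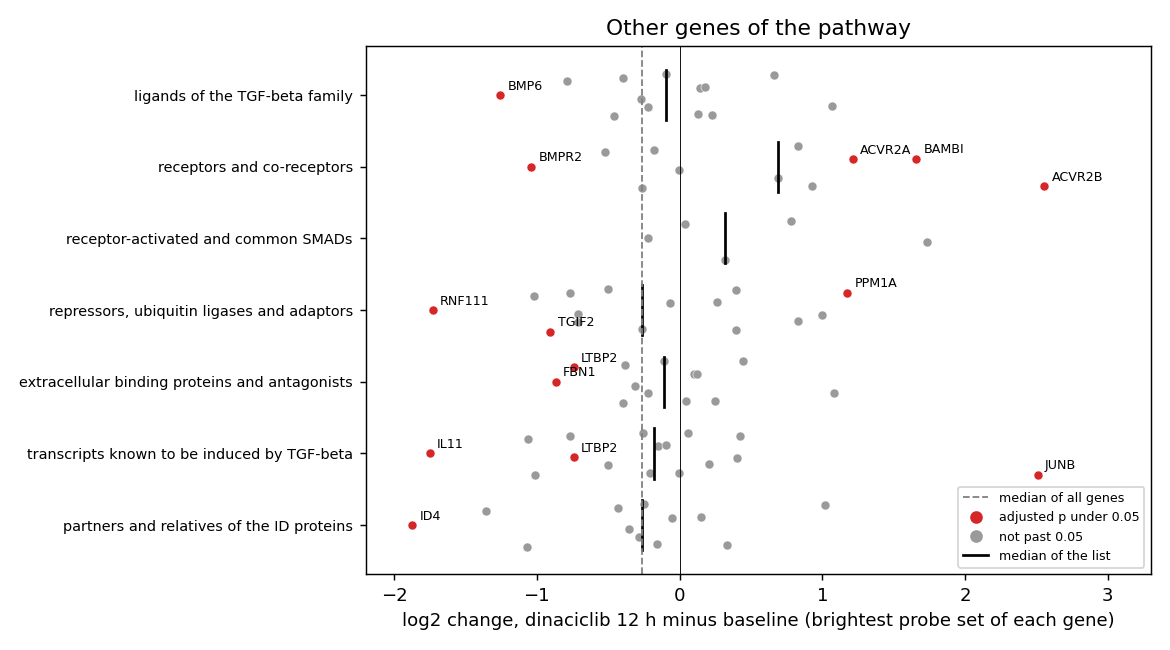
Log2 change (dinaciclib 12 h minus baseline) of each measured gene in the 7 lists, on its brightest probe set, red where the adjusted p was under 0.05. Short black lines are list medians and the dashed line is the median of all genes, -0.26, and the receptor list has the highest median, 0.69.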

How the data were processed

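The 6 columns of the deposited table hold linear intensity values, 1 per probe set and array, as the values themselves show. The steps by which the authors corrected background and summarised probes are not given in the sources used here, and the deposited intensities were not brought to a common median. Of 22277 probe sets 62 controls were left out. Of the 22215 tested, 19064 had 1 gene in the platform annotation, 1043 several and 2108 none, and 19052 matched RefSeq (GRCh38.p14) by gene identifier, with 0 symbols updated. Values were tested per probe set as log2(value + 1), with no further normalization, with limma 3.58.1 (lmFit, eBayes) under R 4.3.3 with the group as the only term, two-sided, and p-values adjusted by Benjamini-Hochberg over all 22215. Fold changes on this scale understate changes of dim probe sets. Intervals are unadjusted 95% intervals of that fit. Genes of the lists are represented by their brightest probe set by mean value over the 6 samples, and the 2 largest called rises and falls of each list are named, with a few fixed genes and the 3 called probe sets most correlated with the largest called member rise; no member fell past the threshold, so no such search was made for falls. Members and lists were chosen with earlier results of these data known. No 2 columns were identical, and correlations of log2 values were 0.963 to 0.972 within a group and 0.937 to 0.947 across groups. The fit was also run on simulated data. These had independent samples and no differences in scaling or between letter and numbered samples, so that run does not bear on such differences. Summaries and plots used Python 3.11.15 and matplotlib 3.10.9. Alternatives were 3 scalings (quantile, median centring, spiked controls), a pseudocount of 16, no dim probe sets, a variance trend, 1 probe set per gene, letter or number as a covariate, a replicate block, the numbered samples alone, and each sample left out in turn. This makes 16 for a brightest probe set, or fewer where it is dim, as for BMP6, and drops out of the fit without dim probe sets.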

Additional observations from a re-analysis of the deposited data

How the results depend on the processing

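All 3828 probe sets called as deposited became 2170 with the numbered samples alone and 1623 to 3313 when 1 sample was left out, with fewest without baseline 5. The 3 member calls became 7 after quantile normalization (20.1% of all probe sets tested were called) and 8 with median centring (24.4%). They became 1 with centring on spiked controls (12.8%) and 1 with the numbered samples alone (9.77%). With 1 probe set per gene, 1 of 9 members passed (18.6% of all). There were 5 with log2(value + 16) (23.8%) and 5 with letter or number as a covariate (21.2%). Without dim probe sets, 5 of the 12 member probe sets tested passed (39.5% of all). When 1 sample was left out, 0 to 2 passed (7.31% to 14.9% of all). The 13 calls of the lists became 28 with median centring, 22 with log2(value + 16), 23 without dim probe sets and with a variance trend, 21 with letter or number as a covariate, and 7 to 13 when 1 sample was left out. Values that turned sign, none of them past the threshold, were with median centring those of ID1 (0.19), ID3 (0.11), SMAD6 209886_s_at (0.10) and 209887_at (0.26), SKIL 206675_s_at (0.25), TGFB1 (0.36), TCF3 (0.017) and TCF12 (0.17). After quantile normalization they were those of ID3 (0.10), SMAD6 209887_at (0.061), SKIL 206675_s_at (0.14), TGFB1 (0.35) and ID1 minus ID3 (-0.17), and in the numbered samples alone SMAD3 218284_at (-0.063) and TGFB1 (0.016). When 1 sample was left out, log2 changes ranged from -0.045 to 0.27 for TGFBR2 208944_at, -0.016 to 0.19 for SMAD3 218284_at, -1.02 to 0.18 for SMAD6 209886_s_at, -0.52 to 0.025 for SMAD6 209887_at, -0.08 to 1.34 for SKIL 215889_at, -0.21 to 0.059 for TGFB1 and -0.081 to 0.21 for ID1 minus ID3. The causes were not tested.

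A replicate block joining 4 with 4, 5 with 5 and E with F gave 3487 calls, 3 of them members: SMAD3 205398_s_at and SKIL 217591_at again, SMAD3 205397_x_at in addition (2.001, limma, Benjamini-Hochberg adjusted p = 0.0463), and not ID2 201566_x_at. The labels give only 2 shared numbers and state no pairing, so the main fit did not treat the samples as paired. The deviations of same-named samples correlated at 0.08 for 4, 0.08 for 5 and 0.17 for E with F. Those of differently named samples were all lower, at -0.11 to 0.04. However, E and F both differed from the numbered samples in their ribosomal RNA and ACTB controls. A difference shared by E and F can by itself raise their correlation and lower those between letter and numbered samples. Between numbered samples, the values of 0.08 for 4 and 5 stood beside 0.04 for baseline 5 with dinaciclib 4. Baseline 4 with dinaciclib 5 gave -0.004. These small differences cannot decide whether samples were paired by name, and the main fit leaves such a pairing out.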
